A study of Homo sapiens with 6 samples.

Results

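The genes described here encode the MCM2 to MCM7 helicase ring, the factors CDC6 and CDT1 that place it on DNA, and MCM10 and CDC45, which take part in switching it on. They were chosen by name and make up 10 of the 19491 genes listed in the deposited tables. All 10 were listed and all 10 had enough reads to be compared. RNA was measured in PC-3, an established line of prostate cancer cells, which was left untreated (control) or exposed for 48 h to 1 mM GPNA (L-gamma-glutamyl-p-nitroanilide) or 10 mM BenSer (benzylserine). Both compounds are amino acid analogues used as inhibitors of ASCT2, the sodium-dependent neutral amino acid transporter encoded by SLC1A5, and the series was designed to compare their effects on the transcriptome. The authors state that BenSer has also been reported to inhibit another transporter, LAT1, in oocytes. The labels name 2 libraries per group, and no genetic change or other agent is given for any group.

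Before a cell can copy its DNA, each future origin has to be licensed. In G1 phase the origin recognition complex, CDC6 and CDT1 load rings of MCM2 to MCM7 around DNA in an inactive form, and geminin (GMNN) blocks CDT1 once S phase has begun, so that no origin is licensed again. In S phase the kinase CDC7 with DBF4, together with cyclin-dependent kinases, brings CDC45 and the GINS complex to the ring, MCM10 helps to activate it, and the ring then unwinds DNA at the fork. Transcription of many of these genes depends on the cell cycle and on E2F factors, and MCM proteins are widely used as markers of proliferating cells.

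The promoters of the licensing genes held short runs of letters that resemble E2F sites. The windows around them are shown as a description, and a link between these letters and the RNA values was not tested. The sequences came from RefSeq (GRCh38.p14) and covered 250 bases before to 50 bases after each annotated start. An entry was matched for 8 of the 10 genes, namely MCM2, MCM3, MCM6, MCM7, CDC6, CDT1, MCM10 and CDC45. The letters searched were TTTGGCGC, TTTCGCGC, TTTGGCGG and TTTCCCGC on both strands. They were settled after the promoters of these genes had been looked at. Matches can overlap, as in MCM2, where TTTCGCGC was read on both strands of the same 12 bases. Each window covers the match or matches nearest to the start; a further match of TTTCCCGC lies outside the printed windows in MCM3 and in MCM7. Capitals mark the matched letters, and each window is written 5′ to 3′ on the strand of its gene.
MCM2 (chr3:127598393-127598444, plus strand): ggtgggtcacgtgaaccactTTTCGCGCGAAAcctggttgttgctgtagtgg
MCM3 (chr6:52284719-52284766, minus strand): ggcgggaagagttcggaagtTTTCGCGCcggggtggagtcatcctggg
MCM6 (chr2:135876502-135876615, minus strand): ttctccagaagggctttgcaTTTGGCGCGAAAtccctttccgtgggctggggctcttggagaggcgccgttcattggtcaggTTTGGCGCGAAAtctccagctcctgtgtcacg
MCM7 (chr7:100101379-100101426, minus strand): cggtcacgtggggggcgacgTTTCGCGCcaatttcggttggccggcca
CDC6 (chr17:40287831-40287913, plus strand): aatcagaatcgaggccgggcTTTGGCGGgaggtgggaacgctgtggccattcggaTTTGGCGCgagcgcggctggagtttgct
CDT1 (chr16:88803734-88803789, plus strand): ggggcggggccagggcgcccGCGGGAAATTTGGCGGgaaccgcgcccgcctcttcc
MCM10 (chr10:13161543-13161590, plus strand): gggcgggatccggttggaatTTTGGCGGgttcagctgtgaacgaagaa
CDC45 (chr22:19479875-19479922, plus strand): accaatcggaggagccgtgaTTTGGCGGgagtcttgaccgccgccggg

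At least 1 of these letter runs was found for all 8 genes with an entry, beside 4.05% of the 27305 genes in the promoter table and 6.37% of the 10975 of them that the deposited tables also list. Because the letters were settled on these same promoters, the count of 8 was fixed by that choice, and nothing is read from its distance to the share over all genes. The capitals show that the same letters were not used throughout: MCM2, MCM3 and MCM7 held TTTCGCGC, MCM10 and CDC45 held TTTGGCGG, and MCM6 held the run TTTGGCGCGAAA at 2 places. MCM7 and CDC45 each had 3 entries for separate starts, and the letters were in only 1 of the 3. The letters CCAAT, which the factor NF-Y can recognise, were read on either strand in 6 of the 8 genes (not in MCM2 and CDT1), beside 39.7% of all genes. A match is a description of the sequence; binding was not measured in these libraries.

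The authors' tables hold reads per gene divided by the total of the library, as counts per 1000000 reads (CPM). Library totals ran from 23077986 to 32178154 reads, of which 51.6% to 52.7% fell on listed genes and 12506 to 13434 reads per library fell on the 10 genes. Within a group, the reads in column 1 and column 2 were nearly as alike as sampling allows: chi-square divided by its degrees of freedom was 1.05 to 1.06 over all genes, against 5.50 to 20.7 between groups. Over the 10 genes alone it was 1.10 for control, 0.953 for GPNA and 0.404 for BenSer columns. The labels do not say that the columns are separate cultures, and with so little spread between them they were counted as 1 sample per group. Each table holds 4 value columns per group, and those beyond columns 1 and 2 matched no label and were not used here. The differences between groups therefore have no replicate check, no p-value is given for a treatment, and the 95% intervals (exact Clopper-Pearson on merged reads) cover counting error only. The epithelial markers EPCAM, KRT8, KRT18, CDH1 and KRT7 were all present and summed to 893 to 899 CPM in control, 805 to 817 CPM in GPNA and 954 to 962 CPM in BenSer columns. Their members did not move together with BenSer: CDH1 was at 85.6 and 89.0 CPM in control and 123 and 122 CPM in BenSer columns, KRT7 at 315 and 311 against 369 and 370 CPM, and KRT18 at 108 and 109 against 91.5 and 92.2 CPM. With GPNA, KRT8, KRT7, KRT18 and EPCAM lay 13.2%, 11.6%, 9.86% and 5.59% below the control, and CDH1 lay 5.95% above it. None of 5 leukocyte markers was listed. Of 5 stromal markers 2 were listed (at most 7.23 CPM summed), and of 5 endothelial markers 1 was listed (at most 4.32 CPM).

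All 10 genes had less RNA with BenSer than in the control, and all 10 lay between these with GPNA. Over all genes compared, 56.7% were below the control with GPNA, 55.4% were below it with BenSer and 52.1% were lower with BenSer than with GPNA. No column of one group reached into the range of another group for any of the 10 genes. A separation of this kind, with both treated columns lower, was seen for 34.4% of all genes with GPNA, for 37.5% with BenSer and for 33.6% between BenSer and GPNA. Summed over MCM2 to MCM7, the control columns held 490 and 480 CPM, the GPNA columns 426 and 433 CPM and the BenSer columns 329 and 333 CPM, 11.4% and 31.7% below the control on average. The difference in log2 of the summed CPM plus 1 was -0.55 with BenSer (95% interval -0.58 to -0.52) and -0.17 with GPNA (-0.20 to -0.15). In bulk RNA, fewer cells in the cell cycle phases that express these genes and less RNA of them per cell cannot be told apart.

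**Figure D1:**
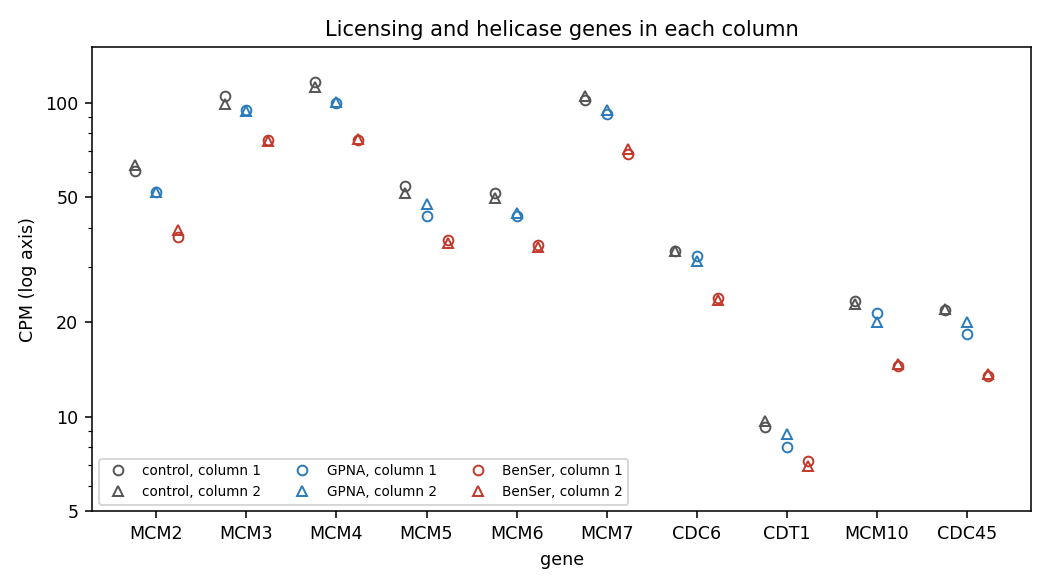
CPM of each gene (log axis) in the 6 libraries, with circles for column 1 and triangles for column 2 of the control (grey), GPNA (blue) and BenSer (red) groups. For every gene the BenSer symbols lie below the GPNA symbols, which lie below the control symbols.

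MCM2, MCM4 and MCM6 are part of the ring, each an ATPase subunit with a partner on either side. MCM2 (ENSG00000073111, GRCh37 chr3:127317253-127341279, plus strand, 16 exons in the annotated transcript) stood at 60.6 and 63.1 CPM in control columns, 52.1 and 52.0 CPM in GPNA columns and 37.4 and 39.2 CPM in BenSer columns. It lay 15.8% below the control with GPNA and 38.1% below it with BenSer. The differences in log2 of mean CPM plus 1, the scale used for single genes from here on, were -0.24 (-0.32 to -0.17) and -0.68 (-0.76 to -0.60).

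MCM4 (ENSG00000104738, GRCh37 chr8:48872745-48890720, plus strand, 17 exons) had the highest CPM of the 10 genes in the control, at 116 and 112 CPM, with 99.7 and 100.4 CPM under GPNA and 76.0 and 76.9 CPM under BenSer. The 3 groups were well apart for this gene, and each treated pair of columns agreed to within 1 CPM. The log2 differences were -0.19 (-0.24 to -0.13) with GPNA and -0.57 (-0.63 to -0.51) with BenSer. MCM6 (ENSG00000076003, GRCh37 chr2:136597196-136634013, minus strand, 17 exons) was at 51.7 and 49.6 CPM in control columns, 43.7 and 44.7 CPM in GPNA columns and 35.2 and 34.8 CPM in BenSer columns. Its log2 differences were -0.19 (-0.28 to -0.11) and -0.52 (-0.60 to -0.44), close to those of MCM4.

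MCM3, MCM5 and MCM7 complete the ring; MCM5 sits beside MCM2 at the place where the ring opens to let DNA in. MCM3 (ENSG00000112118, GRCh37 chr6:52128812-52149679, minus strand, 17 exons) had 105 and 99.3 CPM in control columns, 94.5 and 94.1 CPM in GPNA columns and 76.0 and 75.4 CPM in BenSer columns. It lay 7.81% and 26.0% below the control. Its log2 differences were -0.12 (-0.17 to -0.059) with GPNA and -0.43 (-0.49 to -0.37) with BenSer, and the BenSer interval did not overlap that of MCM2. The GPNA difference was -0.074 without control column 1 and -0.077 with TMM scaling.

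MCM5 (ENSG00000100297, GRCh37 chr22:35796127-35821424, plus strand, 17 exons) was at 54.5 and 51.7 CPM in control columns, 43.7 and 47.5 CPM in GPNA columns and 36.5 and 35.7 CPM in BenSer columns. The GPNA columns of MCM5 were further apart than those of the other ring genes, but both were below both control columns. The log2 differences were -0.21 (-0.30 to -0.13) and -0.54 (-0.63 to -0.46). MCM7 (ENSG00000166508, GRCh37 chr7:99689856-99699563, minus strand, 15 exons) had 102 and 105 CPM in control columns, 92.4 and 94.6 CPM in GPNA columns and 68.5 and 71.2 CPM in BenSer columns. Its log2 differences were -0.14 (-0.20 to -0.085) and -0.56 (-0.62 to -0.50). The annotation places the microRNA genes MIR25, MIR93 and MIR106B inside MCM7 on its strand and AP4M1 across it on the other strand; MIR25 and AP4M1 averaged 0.164 and 4.43 CPM in these tables, small beside MCM7. Whether reads were counted by strand is not given in the sources used here.

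As a pair, the loading factors had medians of -0.11 with GPNA and -0.43 with BenSer, about the values of the ring gene MCM3 (-0.12 and -0.43). A difference between the pair and the ring genes was not tested. CDC6 (ENSG00000094804, GRCh37 chr17:38444131-38460909, plus strand, 12 exons), an ATPase that joins the origin recognition complex before the ring is loaded, was at 33.8 and 33.6 CPM in control columns, 32.4 and 31.4 CPM in GPNA columns and 23.9 and 23.6 CPM in BenSer columns. It lay 5.32% below the control with GPNA and 29.5% below it with BenSer. The GPNA difference of -0.076 had an interval (-0.17 to 0.022) that included 0, and it was -0.038 with TMM scaling, -0.040 with DESeq2 size factors and -0.048 with scaling to the reads on listed genes. The BenSer difference was -0.49 (-0.59 to -0.39).

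CDT1 (ENSG00000167513, GRCh37 chr16:88870197-88875666, plus strand, 10 exons), which carries the ring to the origin and is the target of geminin, had the fewest reads of the 10 genes, 207 to 233 per column. It was at 9.30 and 9.66 CPM in control columns, 8.02 and 8.84 CPM in GPNA columns and 7.24 and 6.98 CPM in BenSer columns. The groups did not overlap, but at this depth the GPNA difference of -0.15 could not be told from 0 by counting error (-0.33 to 0.023), and it was -0.091 without GPNA column 1. The BenSer difference was -0.37 (-0.54 to -0.20).

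The activating factors stood with MCM2 at the other end with BenSer. MCM10 (ENSG00000065328, GRCh37 chr10:13203558-13253110, plus strand, 20 exons), which binds the loaded helicase and is needed for it to unwind DNA, was at 23.4 and 22.9 CPM in control columns, 21.4 and 19.96 CPM in GPNA columns and 14.5 and 14.7 CPM in BenSer columns. Its log2 differences were -0.15 (-0.27 to -0.035) and -0.63 (-0.75 to -0.51). CDC45 (ENSG00000093009, GRCh37 chr22:19466980-19508135, plus strand, 19 exons), the subunit that joins MCM2 to MCM7 and GINS in the active helicase, was at 21.9 and 22.1 CPM in control columns, 18.4 and 19.96 CPM in GPNA columns and 13.5 and 13.7 CPM in BenSer columns. Its log2 differences were -0.19 (-0.31 to -0.067) and -0.65 (-0.78 to -0.53), so that BenSer cells held 38.1% less of it. MCM2 and CDC45 each overlap an annotated long noncoding RNA gene on the other strand, and neither of these RNAs was listed.

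**Figure D2:**
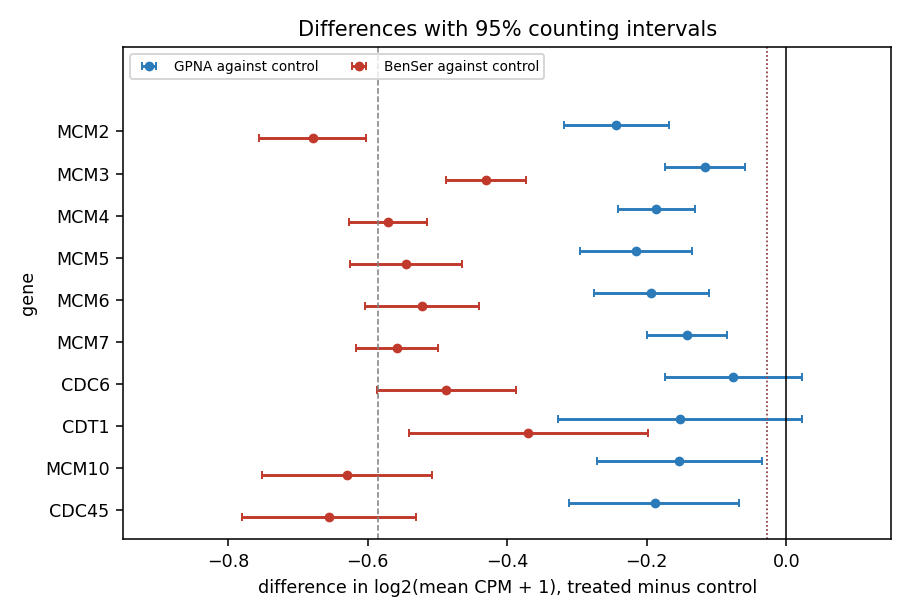
Difference in log2 of mean CPM plus 1 between treated and control columns for each gene, with 95% counting intervals as bars (GPNA blue, BenSer red). The dashed line marks 1.5-fold lower and the dotted lines the median of all genes, which is -0.028 in both treatments; MCM2, MCM10 and CDC45 lie beyond the dashed line with BenSer and none does with GPNA.

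With GPNA, none of the 10 genes was 1.5-fold lower, a size that 0.0637% of the 18828 genes compared reached. That share rests on 12 genes; it was 0.122% to 0.143% with single columns left out and 3.46% with a pseudocount of 0.1 CPM in place of 1, and none of the 10 genes was past 1.5-fold under any of these. The counting interval lay wholly below 0 for 8 of the 10 genes (all but CDC6 and CDT1), against 20.1% of all genes. It was 7 where TMM scaling, DESeq2 size factors or leaving out control column 1 or GPNA column 2 took out MCM10, or leaving out GPNA column 1 took out CDC45. For all 10, both GPNA columns were below both control columns. The median difference of the 10 genes was -0.17, beside -0.028 over all genes. When the 2 columns of a group were entered as 2 samples in edgeR's quasi-likelihood test, which compares these libraries and not the treatments, MCM2, MCM4, MCM5, MCM6 and MCM7 were called lower at an adjusted p under 0.05, beside 8.83% of the 19216 genes tested. DESeq2, which gave an adjusted p for 10647 genes, called MCM2 and MCM4, beside 6.57% of these genes.

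With BenSer, 3 of the 10 genes were at least 1.5-fold lower (MCM2, MCM10 and CDC45), against 1.58% of the 18976 genes compared. With a pseudocount of 0.1 CPM, which widens the differences of genes with few reads, the same 3 genes were past 1.5-fold and the share over all genes was 7.36%. No gene of the 10 was higher. The counting interval was below 0 for all 10, against 25.8% of all genes. The median of the 10 genes was -0.55, beside -0.028 over all genes, and the ring genes, the loading pair and the activating pair had medians of -0.55, -0.43 and -0.64. The edgeR library test called all 10 lower, beside 17.8% of the genes tested, while DESeq2 called 9, all but CDT1, beside 13.7% of the 14745 genes with an adjusted p. The count past 1.5-fold depends on genes near that line: TMM scaling or the size factors of DESeq2 took MCM10 out, and leaving out control column 2 or BenSer column 2 brought in MCM4 or MCM7.

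Both comparisons share the control libraries, and the compounds were used at different doses, 1 mM and 10 mM. A comparison of BenSer with GPNA leaves the control out and sets the compounds side by side at these doses. Compound and dose differ together in it and cannot be told apart. Levels with BenSer were below those with GPNA for all 10 genes, with a median log2 difference of -0.40 beside -0.0093 over all genes. None of the 10 was 1.5-fold lower, against 0.813% of the 19056 genes compared (6.52% with a pseudocount of 0.1 CPM). All 10 counting intervals were below 0, against 20.7% of all genes; leaving out GPNA column 2 or BenSer column 2 took out CDT1 and left 9. The sum of MCM2 to MCM7 was 22.9% lower (log2 difference -0.37, -0.40 to -0.35). The log2 differences were -0.48 (-0.60 to -0.36) for MCM10 and -0.47 (-0.59 to -0.34) for CDC45, and CDC6 (-0.41, -0.51 to -0.31), whose GPNA interval against the control included 0, was close to MCM2 (-0.43, -0.51 to -0.36). For CDT1 and MCM3 they were -0.22 (-0.39 to -0.046) and -0.31 (-0.37 to -0.26). The edgeR library test called all 10, beside 16.3% of genes, and DESeq2 called 9, again all but CDT1, beside 12.2%.

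Read counts of a gene grow with its length, so levels between genes were compared as CPM per kb of annotated transcript. In the control, MCM7 was the highest at 41.9 CPM per kb, followed by MCM3 at 33.3, MCM4 at 28.1, MCM2 at 18.0, MCM5 at 15.3 and MCM6 at 13.5 CPM per kb. Although the ring holds 1 copy of each subunit, the RNA levels of its genes thus differed 3.10-fold from highest to lowest per kb, and this ratio was 3.22 with GPNA and 3.04 with BenSer. Below the ring genes came CDC45 at 11.7, CDC6 at 7.38, MCM10 at 5.08 and CDT1 at 3.56 CPM per kb. By transcript length, the order of the 10 genes was the same in the 3 groups. Neighbours in the order were separated by their counting intervals in the control, whereas with BenSer MCM2 (10.7 to 11.6 CPM per kb) and MCM5 (10.0 to 10.9 CPM per kb) overlapped. The order is less certain than these intervals, because it rests on 1 annotated transcript per gene. With coding length in its place, the ratio within the ring was 2.33, 2.42 and 2.29 in the control, GPNA and BenSer groups, and CDC6, whose transcript is 4564 bases long with 1680 bases of coding sequence, moved from place 8 to place 7 in the control and to place 6 in both treated groups. By coding length the order was no longer shared by the groups: MCM4 was at place 2 in the control and 3 in both treated groups, MCM2 at place 5 in the control and with GPNA and 7 with BenSer, and MCM6 at places 6, 7 and 5. Several of these places rest on close values. With BenSer, MCM6, CDC6 and MCM2 were at 14.20, 14.14 and 14.11 CPM per kb of coding length. With GPNA, MCM3 and MCM4 were at 38.9 and 38.6, and in the control their columns overlapped.

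**Figure D3:**
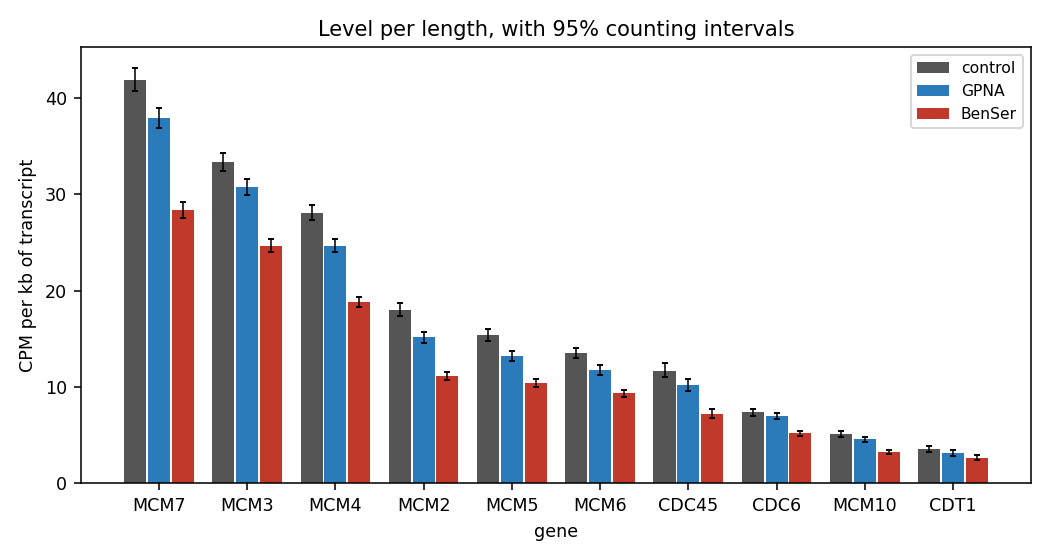
Level of each gene as CPM per kb of annotated transcript in the control (grey), GPNA (blue) and BenSer (red) groups, with 95% Poisson counting intervals of the merged reads as bars. The order from MCM7 to CDT1 by transcript length was shared by the 3 groups, and the ring genes differed 3.04-fold to 3.22-fold from highest to lowest.

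The genes that act before, beside and after the helicase differed from the control to different degrees. They were listed by role, as 71 genes in 8 lists without the 10 described above, and all 71 had enough reads. With BenSer, 67 of the 71 were below the control, beside 55.4% of all genes, and 10 of them were at least 1.5-fold lower, beside 1.58% of all genes. That count was 8 with TMM scaling, which took out GINS3 and TICRR, and 7 with DESeq2 size factors, which took out LIG1 as well. With single columns left out it was 9 to 12. With GPNA, 61 of the 71 were below the control, beside 56.7% of all genes, and none was 1.5-fold lower. The medians of the 71 were -0.39 and -0.12, beside -0.028 over all genes in both treatments.

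For the origin recognition complex, which acts before loading, the medians lay nearer to the control than those of the 10 genes. This difference was not tested, and not every gene shared it. With GPNA, ORC1 (-0.33) was further from the control than MCM2 (-0.24), the furthest of the 10. The 6 genes of the origin recognition complex had a median of -0.23 with BenSer and -0.044 with GPNA, and none was 1.5-fold lower. ORC1, whose protein level varies with the cell cycle in human cells, was the furthest from the control, at 15.2, 11.9 and 10.4 CPM in the control, GPNA and BenSer groups (-0.33, -0.48 to -0.18, and -0.52, -0.66 to -0.37). The other genes of the complex that the rule named, ORC2, ORC6 and ORC5, differed by -0.29, -0.24 and -0.22 with BenSer.

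The 16 regulators of licensing had a median of -0.29 with BenSer and -0.060 with GPNA. DTL, the adaptor of the ubiquitin ligase that removes CDT1 in S phase, was the only one past 1.5-fold, at 43.2 CPM in the control, 39.3 CPM under GPNA and 26.5 CPM under BenSer (-0.13 and -0.69). GMNN, the inhibitor of CDT1, was at 11.3 CPM in the control, 11.6 CPM under GPNA and 8.87 CPM under BenSer. Its GPNA difference of 0.036 could not be told from 0 (-0.12 to 0.19), and its BenSer difference was -0.32 (-0.48 to -0.16), near that of its target CDT1. CCNA2, the cyclin A of S and G2 phase, did not differ from the control beyond counting error with GPNA (41.6 CPM in both, interval -0.088 to 0.087) and was 28.8 CPM with BenSer (-0.52, -0.61 to -0.43). FBXO5, an inhibitor of the anaphase-promoting complex, and CCNE2, a cyclin E, differed by -0.40 and -0.35 with BenSer. With GPNA, 7 of the 16 counting intervals were below 0, beside 20.1% of all genes. Only 1 was above it, that of the other cyclin E gene, CCNE1, which was named after its value was seen. CCNE1 was at 4.47 CPM in the control and 5.46 CPM under GPNA (0.24, 0.021 to 0.46). The share of all genes with an interval above 0 is not given here.

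Among the other MCM family genes, MCM8 lay close to the ring genes, with 52.4 CPM in the control, 44.9 CPM under GPNA and 35.3 CPM under BenSer (-0.22, -0.30 to -0.14, and -0.56, -0.64 to -0.47). MCM9, its partner in homologous recombination, was at 10.95, 9.85 and 11.1 CPM. The MCM9 interval included 0 in both treatments (-0.30 to 0.026 with GPNA and -0.13 to 0.18 with BenSer). MCMDC2 rested on 43 reads in the control and was at 0.929, 1.39 and 0.671 CPM. Unlike the licensing genes it was above the control with GPNA (0.31, 0.0057 to 0.60), with an interval that only just left out 0. An interval above 0 with GPNA was seen for 1841 of the 18828 genes compared. The BenSer interval of MCMDC2 included 0 (-0.21, -0.49 to 0.076).

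Next come the genes that fire a licensed origin. All 12 were below the control with BenSer, with a median of -0.51, and 4 of them, CDC7, GINS3, GINS4 and TICRR, were past 1.5-fold (GINS3 and TICRR not with TMM scaling or DESeq2 size factors). Leaving out BenSer column 1 also took out TICRR, and leaving out BenSer column 2 took out GINS3. With GPNA the median was -0.18, and 11 of the 12 counting intervals were below 0, beside 20.1% of all genes. CDC7, the kinase that phosphorylates the loaded MCM ring, was at 21.3, 18.8 and 12.9 CPM (-0.17, -0.29 to -0.047, and -0.68, -0.81 to -0.55). Its activating subunit DBF4 was at 35.5, 32.5 and 24.4 CPM (-0.12 and -0.52). GINS3 and GINS4, partners of CDC45 in the active helicase, differed by -0.36 and -0.29 with GPNA and by -0.61 and -0.69 with BenSer. TICRR, which helps bring CDC45 to the ring, differed by -0.14 and -0.61.

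At the fork, the 6 replisome and fork protection genes had a median of -0.49 with BenSer and -0.18 with GPNA. CLSPN and TIPIN, which link the helicase to the polymerases and to the replication checkpoint, were both past 1.5-fold with BenSer (both -0.75). The 12 polymerase and primase genes had a median of -0.40 with BenSer and -0.12 with GPNA. PRIM1, the catalytic primase subunit, was at 15.7 CPM in the control, 14.9 CPM under GPNA and 8.81 CPM under BenSer. It was the only gene of the 71 that was 1.5-fold lower with BenSer than with GPNA, beside 0.813% of all genes. The 13 genes of the clamp, its loaders and Okazaki fragment maturation had medians of -0.46 and -0.12. DSCC1 (-0.77) and LIG1 (-0.63) were past 1.5-fold with BenSer, LIG1 not with DESeq2 size factors or without BenSer column 1. PCNA, the sliding clamp, was at 94.9, 85.0 and 65.6 CPM (-0.16, -0.22 to -0.098, and -0.53, -0.59 to -0.47), differences close to those of the ring genes. The 3 RPA genes, which coat single-stranded DNA, had a median of -0.30 with BenSer.

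**Figure D4:**
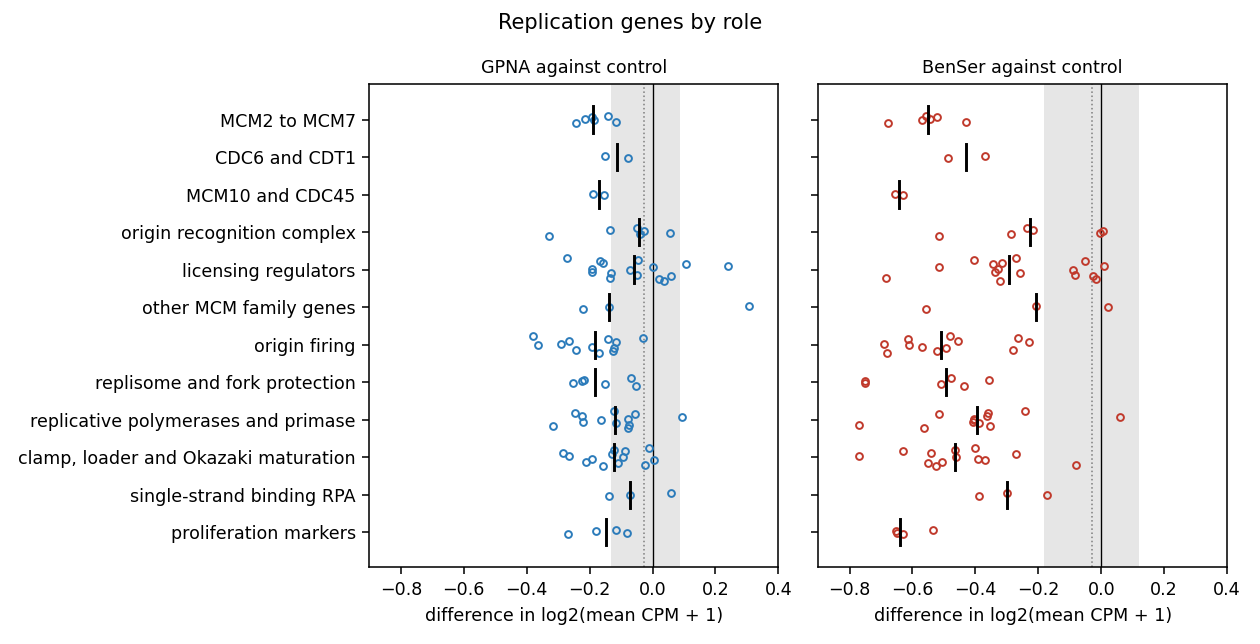
Difference in log2 of mean CPM plus 1 against the control for each gene of the lists (circles), by role, with GPNA at the left and BenSer at the right. Black bars are list medians, the grey band holds the middle 50% of all genes and the dotted line is their median of -0.028; with BenSer every list median lies left of the band, that of the origin recognition complex (-0.23) nearer to it than that of origin firing (-0.51).

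Markers of proliferation moved with the licensing genes, and their part in the result was not tested. The 4 markers MKI67, TOP2A, BIRC5 and CCNB1 summed to 572 to 573 CPM in the control, 507 to 511 CPM with GPNA and 363 to 373 CPM with BenSer. MKI67 was at 231, 191 and 149 CPM (-0.27, -0.31 to -0.23, and -0.63, -0.67 to -0.59). The median of the 4 was -0.15 with GPNA and -0.64 with BenSer, beside -0.17 and -0.55 for the 10 licensing and helicase genes.

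Outside all these lists, the genes nearest to the medians of the 10 genes in both differences were, among 7845 genes with a mean of at least 10 CPM, ACTL6A, AEN, MYBL1, STMN1 and PPA1. Nearness was the Euclidean distance between the 2 log2 differences, which ran from 0.0054 to 0.015 and uses 3 groups only. ACTL6A, a subunit of chromatin remodelling complexes, differed by -0.16 with GPNA and -0.55 with BenSer, and STMN1, which destabilises microtubules, by -0.18 and -0.55.

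The E2F-like letters printed above were next set beside the values of genes other than the 10. With BenSer, 690 genes with these letters in a promoter had a median of -0.087 and 3.91% of them were 1.5-fold lower, while 10170 genes without them had a median of -0.028 and 1.58% were 1.5-fold lower. With TMM scaling these values were -0.045 and 2.46% with the letters and 0.0093 and 1.09% without them, and with a pseudocount of 0.1 CPM the shares were 6.67% and 4.51%. Of the 71 genes of the replication lists 58 had a promoter entry; 2 of the 10 past 1.5-fold with BenSer, GINS4 and DSCC1, had none. Within these 58, 23 genes with the letters had a median of -0.52, and 7 of the 23 were past 1.5-fold (5 with TMM scaling, without GINS3 and TICRR, and 4 with DESeq2 size factors, without LIG1 as well). The 35 list genes without the letters had a median of -0.37, and 1 of them was past 1.5-fold. With single columns left out, 6 to 8 of the 23 and 1 to 2 of the 35 were past it. The 23 are part of the 690 and the 35 part of the 10170, so the comparisons are not separate. Of the 27 genes past 1.5-fold among the 690, 7 were list genes. With GPNA the medians were closer, at -0.053 and -0.039 over all genes and -0.14 and -0.12 within the lists. These shares and medians are descriptions, with no test.

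**Figure D5:**
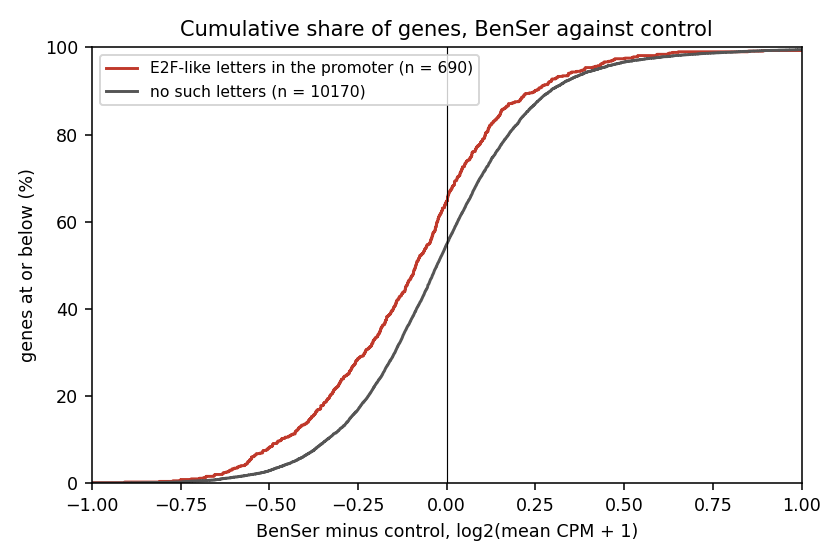
Share of genes (%) at or below each difference in log2 of mean CPM plus 1 between BenSer and control, for 690 genes with the E2F-like letters in a promoter (red) and 10170 genes without them (grey). The licensing and helicase genes are left out of both curves, whose medians are -0.087 and -0.028.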

How the data were processed

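Per the study's methods, total RNA was sequenced from stranded libraries as read pairs, which the authors trimmed and aligned with TopHat2 (hg19, GRCh37.p13); the submitters' processing notes also name Bowtie2, HTSeq 0.6.2p2 and DESeq. The authors deposited CPM per gene in 2 tables. All values (100%) were whole reads divided by the library total (tolerance 0.0001), which gave back the reads. Columns 1 and 2 matched the labels; 8 other column entries (6 distinct) matched none and were not used, nor were the authors' fold changes, p-values and false discovery rates. The doses and the 48 h come from the study's methods and legends. Genes that reached a mean of 5 reads in 1 or both groups were compared as log2 of mean CPM plus a pseudocount of 1, and counted at 1.5-fold. Both columns of a group were merged as 1 sample. The study's methods speak of 4 replicates per group in the sequencing and of 3 or more replicate experiments in general; which columns come from separate experiments is not given in the sources used here. Library tests used edgeR 4.0.16 and DESeq2 1.42.0 (R 4.3.3) with Benjamini-Hochberg adjustment; adjusted p-values that DESeq2 left out were not counted. The scripts were tested on simulated data. Gene positions and lengths came from GENCODE annotation lifted to GRCh37, and promoters from RefSeq (GRCh38.p14). Figures and tables used Python 3.11.15, pandas 2.3.3, scipy 1.17.1 and matplotlib 3.10.9.

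Named genes were the 10 genes, up to 4 per list with the greatest absolute BenSer difference, GMNN, CDC7, DBF4, PCNA and MKI67, and the 5 nearest genes. The genes, lists and tests were chosen with earlier results of these data known. Alternatives were other pseudocounts, read minimums, scalings, thresholds, lengths and tests, and leaving out each column. A further list of marker genes is not reported here.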

Additional observations from a re-analysis of the deposited data

How the results depend on the processing

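All 10 genes stayed below the control with GPNA and with BenSer, and below GPNA with BenSer, under every alternative run. With single columns left out, their median difference was -0.20 to -0.15 with GPNA, -0.57 to -0.53 with BenSer and -0.40 to -0.38 between BenSer and GPNA, and 3 to 4 of them were 1.5-fold lower with BenSer. TMM scaling or DESeq2 size factors left 2 of them past 1.5-fold with BenSer and 7 GPNA intervals below 0, and changed the count of all genes higher and lower with BenSer from 371 and 300 to 432 and 214 or 435 and 212. At a lower threshold of 0.32 on the log2 scale, 10 of the 10 genes were lower with BenSer and 8 with BenSer against GPNA. Of the 71 other replication genes, 3 were lower with GPNA, 45 with BenSer and 31 with BenSer against GPNA. The shares over all genes were 2.74% with GPNA, 10.3% with BenSer and 7.08% with BenSer against GPNA. At 2-fold there were 0 with BenSer among the 10 genes, 0 among the others, and 0 among the others against GPNA. Over all genes, 0.0474% were 2-fold lower with BenSer and 0.0525% with BenSer against GPNA. The 1 replication gene lower with BenSer than with GPNA (PRIM1) became 3 with a pseudocount of 0.1, and 1 to 3 with single columns left out (3 without BenSer column 2, 2 without BenSer column 1 or GPNA column 2). The share over all genes was 0.813%, 6.52% with that pseudocount, and 0.924% to 0.997% with single columns left out. At the threshold of 1.5-fold, that pseudocount moved the counts over all genes further than any other setting run, to 879 higher and 652 lower with GPNA, 1205 and 1397 with BenSer, and 930 and 1243 between them, from 64 and 12, 371 and 300, and 201 and 155. The lower threshold gave 539 and 515, 1396 and 1961, and 1308 and 1349 genes, and 2-fold gave 8 and 1, 83 and 9, and 20 and 10. Without single columns, 23 to 27 genes were lower with GPNA, against 12. DESeq2 called 2 of the 10 genes with GPNA against 5 by edgeR, and 1257, 4167 and 3661 genes in all for GPNA, BenSer and BenSer against GPNA, against 3162, 7014 and 6614. Coding length gave ratios within the ring of 2.33 (control), 2.42 (GPNA) and 2.29 (BenSer).

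Same-numbered columns did not pair (correlations of deviations 0.043, 0.064 and 0.066 over 7924 genes); with the column number as a replicate block, edgeR called 5, 10 and 10 of the 10 genes and 3156, 6982 and 6583 genes in all, and no call among the 10 changed. With 1 sample per group, counting intervals do not cover the spread between cultures, and 207 to 233 reads per column limit CDT1.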
